A study of Homo sapiens with 24 samples.

Results

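The aryl hydrocarbon receptor group described here comprised 7 genes, which were AHR, its partner ARNT, the feedback repressors AHRR and TIPARP, and the target genes CYP1A1, CYP1B1 and ALDH3A1. They were taken by gene name from the 58735 genes of the RNA-seq count table, and each name had 1 identifier. The group was chosen by the measured reversine response of OE33. In the main fit (edgeR), though not under all settings, CYP1A1 was the only gene called there in Cas9 cells. It changed less in cGAS KO cells. Values from reversine in OE33, and from the genotype difference of CYP1A1 there, are therefore given as descriptions without p-values.

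The RNA-seq series held 24 libraries of OE33 and SK-GT-4, both established human esophageal adenocarcinoma (EAC) cell lines. In each line, Cas9 control cells without the knockout (Cas9) and cells with CRISPR knockout of the DNA sensor cGAS (cGAS KO) received DMSO or 500 nM reversine for 48 hours. Reversine inhibits the spindle checkpoint kinase MPS1 (MPS1i), so cells missegregate chromosomes. No other inhibitor was used, so effects of the compound itself and of missegregation cannot be told apart. The 8 groups (Cas9 DMSO, Cas9 reversine, cGAS KO DMSO and cGAS KO reversine in each line) had 3 replicates each, and a replicate number marks a batch. The labels do not name the clones, so each genotype was taken as 1 clone grown in 3 batches. Differences between clones and the loss of cGAS cannot be told apart. Within a line, p-values measure the spread of libraries that remains after differences between batches are fitted. For levels compared between lines, they measure the spread of libraries within groups. In bulk RNA, fewer cells of a kind and less RNA per cell cannot be told apart either.

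AHR is a ligand-activated transcription factor held in the cytosol by HSP90 and its co-chaperone p23 (PTGES3). After binding a ligand it enters the nucleus, pairs with ARNT and binds response elements around the letters GCGTG. Its classical targets encode xenobiotic-metabolizing enzymes, and it induces AHRR, which competes for ARNT, and TIPARP, an ADP-ribosyltransferase that limits AHR activity. In barrier epithelia the pathway is known for its response to aromatic hydrocarbons, dietary indoles and tryptophan metabolites.

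Because response elements mark direct targets of AHR, sequence upstream of the members' start sites was searched for GCGTG on either strand (so also CACGC) and for the longer TNGCGTG, whose matches are a subset of the first. RefSeq promoter entries (GRCh38.p14) matched 5 of the 7 members with 8 start sites, and CYP1B1 and ALDH3A1 had none. In the 1500 bases before the CYP1A1 start, GCGTG occurred 10 times and TNGCGTG 5 times. Of 35116 start sites in the table, 72.9% had GCGTG in such a window, and 0.629% had it as often as CYP1A1. TNGCGTG was in 23.2% of the windows, and 8 of the 35116 (0.0228%) had 5 or more. The 300 bases with the densest part of this cluster, shown because CYP1A1 carried the largest reversine response of the group, lie at chr15:74726344-74726643 (GRCh38, minus strand), 1115 to 816 bases before the start and in no annotated gene. The second stretch is the 250 bases before a start of AHRR at chr5:321464-321713 (GRCh38, plus strand), in an intron of the readthrough gene PDCD6-AHRR, shown because its single GCGTG is also a TNGCGTG. Capitals mark GCGTG or CACGC.
CYP1A1 upstream window: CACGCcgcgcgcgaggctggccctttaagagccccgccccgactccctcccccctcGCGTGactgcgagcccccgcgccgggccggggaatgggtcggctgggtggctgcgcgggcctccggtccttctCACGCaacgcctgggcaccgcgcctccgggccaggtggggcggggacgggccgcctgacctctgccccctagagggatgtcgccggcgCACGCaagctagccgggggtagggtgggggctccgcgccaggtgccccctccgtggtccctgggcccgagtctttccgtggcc
AHRR upstream of its start: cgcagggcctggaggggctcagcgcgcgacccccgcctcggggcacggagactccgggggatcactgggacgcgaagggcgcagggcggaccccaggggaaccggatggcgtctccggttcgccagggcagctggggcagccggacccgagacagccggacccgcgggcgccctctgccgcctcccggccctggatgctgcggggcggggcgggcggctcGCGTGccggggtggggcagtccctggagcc
The CYP1A1 window held 4 of the 10 matches, and 3 of them were TNGCGTG. Within 250 bases of a start, where 32.2% of all start sites had GCGTG and 4.52% had TNGCGTG, CYP1A1 had 1 and 0 matches. Over 1500 bases, ARNT had 5 and 2 matches, the AHRR starts 4 and 1 or 8 and 1, and the TIPARP starts 6 and 0, 6 and 0 or 2 and 1. AHR had 0 of either in its window. These are matches of letters in a window, not measured binding.

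Library depth ranged from 15561268 to 25284177 counts, and all 7 members had counts in all 24 libraries, the lowest being 16 for AHRR. Expression is given as CPM, read counts scaled to library size with TMM factors. Of the 5 epithelial markers EPCAM, CDH1, KRT8, KRT18 and KRT19, all were above 1 CPM in every library of both lines. Their sum was 16300 to 22543 CPM in OE33 and 3677 to 19355 CPM in SK-GT-4. In SK-GT-4, CDH1 was 9.10 CPM in Cas9 DMSO and 133 CPM in cGAS KO DMSO on average, so the genotypes of that line also differed in epithelial markers. Immune markers summed to at most 0.380 CPM in any library. Fibroblast markers reached 7.03 CPM in OE33 and 81.7 CPM in SK-GT-4, mostly from COL1A1, and endothelial markers reached 0.362 and 19.2 CPM.

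CGAS, the targeted gene, was 28.9 to 41.6 CPM in OE33 Cas9 and 2.31 to 2.82 CPM in 5 of 6 OE33 cGAS KO libraries. In the sixth, labelled replicate 2 of cGAS KO in DMSO, it was 15.6 CPM, which goes against the label. CGAS in SK-GT-4 was 14.7 to 26.1 CPM in Cas9 and 2.22 to 6.09 CPM in cGAS KO. In SK-GT-4, replicate 2 of Cas9 reversine and replicate 1 of cGAS KO DMSO stood apart from their groups, with 24.2% and 36% of 25181 genes over 2-fold from the mean of the other replicates, against 4.94% to 23.1% in the other libraries. The 23.1% was in replicate 2 of SK-GT-4 cGAS KO DMSO, which was close to the first of these and was kept. The values of the members that moved most without the 3 libraries set apart are also given without them. These libraries were picked with results of these data known, so p-values without them are descriptions.

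CYP1A1 encodes the cytochrome P450 that is the classical marker of AHR activity, and it was higher with reversine in every batch of both lines and genotypes. In OE33 Cas9 it was 7.81, 3.13 and 6.31 CPM in DMSO replicates 1 to 3 and 31.1, 16.7 and 49.4 CPM in reversine. In OE33 cGAS KO it was 6.40, 3.95 and 2.97 CPM in DMSO and 14.0, 6.47 and 19.8 CPM in reversine. All reversine libraries were above all DMSO libraries of the same genotype. In SK-GT-4 Cas9, DMSO gave 22.3, 13.6 and 9.18 CPM and reversine 36.6, 38.3 and 25.4 CPM. In SK-GT-4 cGAS KO, DMSO gave 7.73, 12.4 and 9.08 CPM and reversine 19.1, 36.3 and 30.7 CPM. Again the groups did not overlap in either genotype. The share of all genes without such overlap was not computed. Here and below, a lack of overlap between groups of 3 libraries is therefore a description only. Over the 12 pairs of libraries from the same batch and genotype, reversine was higher in 12, by 1.63-fold to 7.73-fold with a median of 2.86-fold. Of 25181 genes, 94 (0.373%) were higher with reversine in all 12 pairs, and 407 (1.62%) in all 6 pairs of SK-GT-4.

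**Figure D1:**
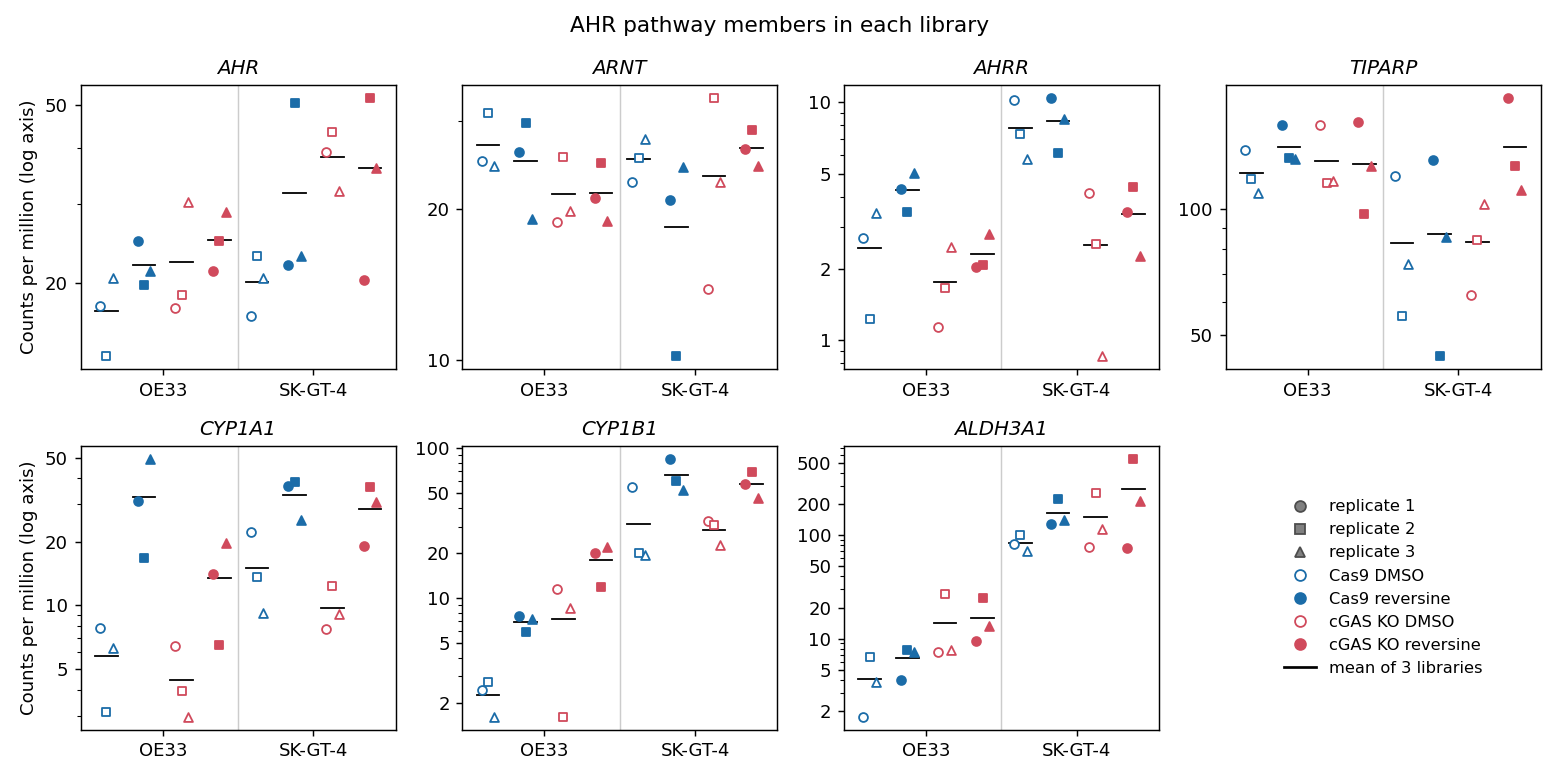
CPM on a log axis for the 7 members in all 24 libraries, 1 panel per gene, with a marker for each replicate, open in DMSO and filled in reversine, blue for Cas9 and red for cGAS KO, and a line at the mean of 3 libraries. CYP1A1 reversine points lie above the DMSO points of the same line and genotype in all 4 cases, while ALDH3A1 and CYP1B1 lie higher in SK-GT-4 than in OE33.

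In the fit to OE33, the log2 change of CYP1A1 was 2.45 (SE 0.28) in Cas9 and 1.44 (SE 0.29) in cGAS KO. It was the 1 gene of 20426 called by edgeR in Cas9 (0.0049%), the comparison that chose the group, at an adjusted p of at most 0.01. In the same comparison DESeq2 called 22 genes (0.108%), and ComBat-seq followed by DESeq2 called 836 (4.09%). In OE33 cGAS KO edgeR called 0 members and 0 genes (0%), with 1420 genes at an unadjusted p under 0.05, and DESeq2 called 6 genes. The changes in Cas9 and cGAS KO differed by 1.01 (SE 0.39) on the log2 scale, and by 0.71 (SE 0.35) without the library whose CGAS level went against its label. Under reversine, CYP1A1 was lower in OE33 cGAS KO than in Cas9 in all 3 batches, at 0.390-fold to 0.452-fold, although the groups overlapped between batches. The fitted log2 difference was -1.30 (SE 0.26), and it shares the Cas9 reversine libraries with the comparison that chose the group. In DMSO it was -0.29 (SE 0.29), and -0.61 without the library whose CGAS level went against its label.

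The same response was measured in SK-GT-4, whose libraries the OE33 comparison did not use, although earlier results from them were also known when the members were chosen. CYP1A1 had a log2 change of 1.15 (SE 0.34, adjusted p = 0.981) in Cas9 and 1.58 (SE 0.34, adjusted p = 0.966) in cGAS KO, where it ranked first of all genes by p. Over both genotypes it was 1.37 (SE 0.24, 95% interval 0.84 to 1.90, adjusted p = 1), again ranking first by p of the 22782 genes tested. No member passed the adjusted threshold in SK-GT-4, where edgeR called 0 genes in Cas9 (0%), 0 in cGAS KO (0%) and 0 over both genotypes (0%). At an unadjusted p under 0.05 there were 566, 317 and 498 genes, and DESeq2 called 1, 0 and 5 genes. The 5 genes called by DESeq2 over both genotypes, 0.0219% of those tested, held 2 members, CYP1A1 (adjusted p = 0.00275) and CYP1B1 (adjusted p = 0.00557). Without both SK-GT-4 libraries that stood apart, an omission chosen after seeing the data, edgeR called 26 of 22234 genes (0.117%), and 3 of them were members. CYP1A1 was then at 1.26 (SE 0.15, adjusted p = 1.61e-08). The genotype difference of the CYP1A1 change in SK-GT-4 was -0.42 (SE 0.47, 95% interval -1.46 to 0.61, adjusted p = 0.823), with the larger change in cGAS KO, and -0.22 without replicate 1 of cGAS KO DMSO.

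**Figure D2:**
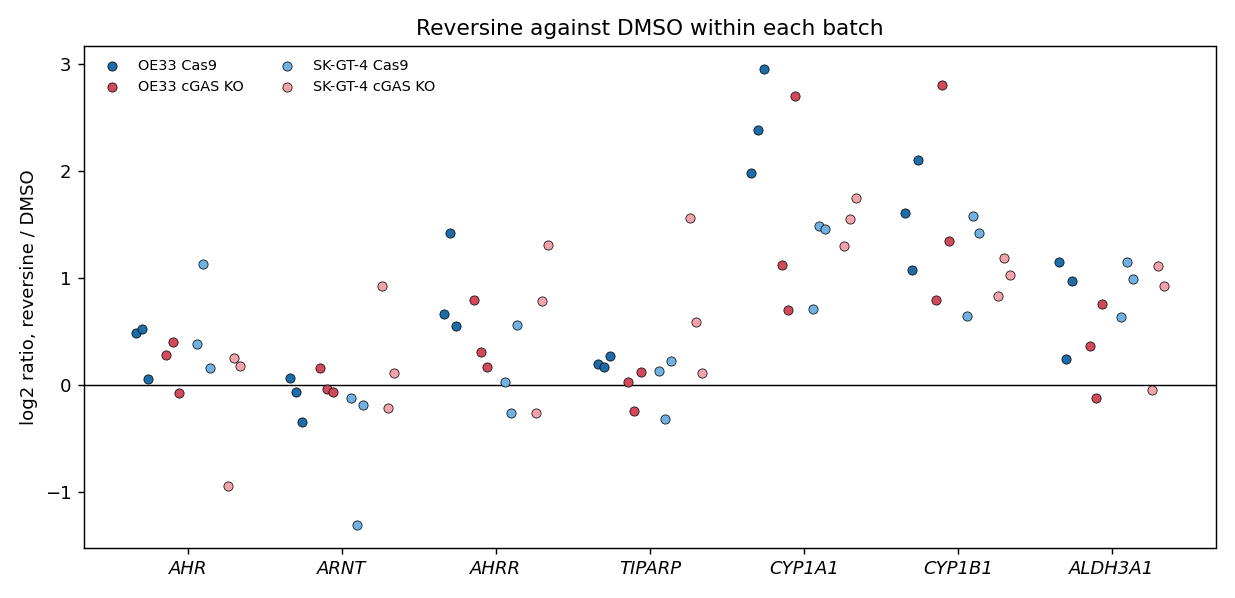
Log2 ratio of reversine to DMSO CPM within each batch for the 7 members, with a point for each of the 3 batches of a line and genotype and a line at 0. All 12 points of CYP1A1 and all 12 of CYP1B1 lie above 0, while those of ARNT lie on both sides, with 4 of 12 above.

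CYP1B1, which encodes the extrahepatic cytochrome P450 that oxidizes estrogens and polycyclic hydrocarbons, was higher with reversine in 12 of 12 pairs, by 1.56-fold to 6.94-fold with a median of 2.41-fold. In OE33 Cas9 it was 2.43, 2.77 and 1.61 CPM in DMSO and 7.59, 5.92 and 7.22 CPM in reversine. In OE33 cGAS KO it was 11.5, 1.62 and 8.54 CPM in DMSO and 20.0, 11.8 and 21.9 CPM in reversine. The lowest cGAS KO value, 1.62 CPM, was in the library whose CGAS level went against its label. In SK-GT-4 Cas9, DMSO gave 54.6, 20.1 and 19.5 CPM and reversine 85.2, 60.0 and 52.2 CPM, with overlap through DMSO replicate 1. In SK-GT-4 cGAS KO, DMSO gave 32.5, 30.5 and 22.7 CPM and reversine 58.1, 69.6 and 46.2 CPM, with no overlap.

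The log2 change of CYP1B1 was 1.54 (SE 0.39) in OE33 Cas9 and 1.41 (SE 0.35) in OE33 cGAS KO, where it was 0.905 without the library whose CGAS level went against its label. In SK-GT-4 it was 1.16 (SE 0.29, adjusted p = 0.981) in Cas9, 1.04 (SE 0.29, adjusted p = 0.966) in cGAS KO and 1.10 (SE 0.21, 95% interval 0.65 to 1.55, adjusted p = 1) over both, where it ranked 3 of 22782 by p. Without both SK-GT-4 libraries that stood apart it was 1.05 (SE 0.14, adjusted p = 1.48e-07) over both genotypes.

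ALDH3A1 encodes an aldehyde dehydrogenase of barrier epithelia, and it was higher with reversine in 10 of 12 pairs, with a median of 1.79-fold. In OE33 Cas9 it went from 1.76, 6.62 and 3.78 CPM in DMSO to 4.01, 7.81 and 7.49 CPM in reversine. In OE33 cGAS KO the levels were 7.41, 27.2 and 7.77 CPM in DMSO and 9.53, 25.0 and 13.2 CPM in reversine, so the groups overlapped. In SK-GT-4 Cas9 they were 82.0, 101 and 70.8 CPM in DMSO and 127, 224 and 140 CPM in reversine, without overlap. In SK-GT-4 cGAS KO they were 77.6, 255 and 114 CPM in DMSO and 75.2, 551 and 216 CPM in reversine, where replicate 1 did not increase. Replicate 2 was the highest of the 3 in all 8 groups. The log2 change was 0.77 (SE 0.26) in OE33 Cas9 and 0.26 (SE 0.23) in OE33 cGAS KO, where it was 0.58 without that library. In SK-GT-4 it was 0.88 (SE 0.38, adjusted p = 0.981) in Cas9, 0.79 (SE 0.38, adjusted p = 0.966) in cGAS KO and 0.83 (SE 0.27, 95% interval 0.24 to 1.43, adjusted p = 1) over both, and 0.87 (SE 0.15, adjusted p = 0.000348) without both libraries.

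Levels of the receptor and its partner overlapped between DMSO and reversine in every line and genotype. AHR was 13.7 to 20.5 CPM in OE33 Cas9 DMSO and 19.8 to 24.9 CPM in reversine, and 17.6 to 30.4 and 21.3 to 28.8 CPM in cGAS KO. In SK-GT-4 Cas9 it was 16.9, 23.0 and 20.5 CPM in DMSO and 22.0, 50.4 and 23.0 CPM in reversine, the value of 50.4 being in a library that stood apart. In SK-GT-4 cGAS KO it was 39.3, 43.5 and 32.1 CPM in DMSO and 20.3, 51.9 and 36.2 CPM in reversine. AHR was higher with reversine in 10 of 12 pairs, with a median of 1.20-fold. The log2 changes of AHR were 0.34, 0.18, 0.57 and -0.17 in the same order. Without replicate 2 of SK-GT-4 Cas9 reversine the third was 0.34, and without replicate 1 of SK-GT-4 cGAS KO DMSO the fourth was 0.098. ARNT lay between 18.9 and 31.2 CPM in the OE33 libraries and between 10.2 and 33.4 CPM in SK-GT-4, was higher with reversine in 4 of 12 pairs, and changed by -0.14, 0.0013, -0.44 and 0.22. The lowest ARNT value, 10.2 CPM, was again in replicate 2 of SK-GT-4 Cas9 reversine, and without that library the ARNT change in these cells was -0.045. Without replicate 1 of SK-GT-4 cGAS KO DMSO the change of 0.22 became -0.092.

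The feedback repressors AHRR and TIPARP, like AHR, were each higher with reversine in 10 of 12 pairs, with medians of 1.47-fold and 1.11-fold. The share of all genes higher in 10 of 12 pairs was not computed. AHRR in OE33 Cas9 was 2.69, 1.23 and 3.43 CPM in DMSO and 4.31, 3.45 and 5.05 CPM in reversine, without overlap and with a log2 change of 0.82 (SE 0.27). The change was 0.40 (SE 0.29) in OE33 cGAS KO, 0.17 (SE 0.38, adjusted p = 0.981) in SK-GT-4 Cas9 and 0.55 (SE 0.40, adjusted p = 0.966) in cGAS KO of that line, where groups overlapped. Without replicate 2 of SK-GT-4 Cas9 reversine the AHRR change in Cas9 was 0.43, and without replicate 1 of SK-GT-4 cGAS KO DMSO that in cGAS KO was 0.90. Reads of AHRR can be shared with the overlapping readthrough gene PDCD6-AHRR, so its values are uncertain. TIPARP was 97.1 to 161 CPM in OE33, with log2 changes of 0.18 (SE 0.12) in Cas9 and -0.041 (SE 0.12) in cGAS KO. In SK-GT-4 cGAS KO it was 62.3, 84.3 and 103 CPM in DMSO and 184, 126 and 111 CPM in reversine. These groups did not overlap, and the log2 change was 0.69 (SE 0.34, adjusted p = 0.966), against 0.047 (SE 0.34) in Cas9, where it was 0.31 without replicate 2 of Cas9 reversine. Without both libraries that stood apart, the TIPARP change in cGAS KO was 0.31 (SE 0.18, adjusted p = 1), and without replicate 1 of cGAS KO DMSO alone it was 0.30 (SE 0.27, adjusted p = 1).

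The lines were compared for the size of the reversine change, with batches nested in lines. Over both genotypes, the log2 change in OE33 minus that in SK-GT-4 was 0.60 (SE 0.34) for CYP1A1, 0.39 (SE 0.38) for CYP1B1 and -0.28 (SE 0.34) for ALDH3A1. In Cas9 alone the difference for CYP1A1 was 1.32 (SE 0.48). These differences contain the OE33 changes that chose the group, so they are given without a test. Without the OE33 library whose CGAS level went against its label, the differences over both genotypes were 0.78, 0.15 and -0.14. CYP1A1 reached 32.4 ± 16 CPM (SD, n = 3) in OE33 Cas9 and 33.4 ± 7.0 CPM (SD, n = 3) in SK-GT-4 Cas9 under reversine, from 5.75 ± 2.4 and 15.0 ± 6.7 CPM in DMSO.

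Between genotypes, ALDH3A1 was higher in OE33 cGAS KO than in Cas9 in all 3 batches in DMSO, by 2.03-fold to 4.07-fold, and in reversine, by 1.75-fold to 3.17-fold, with no overlap of the groups in either. The log2 difference was 1.71 (SE 0.25, adjusted p = 0.00105) in DMSO and 1.20 (SE 0.24, adjusted p = 0.00651) in reversine. In OE33 it was the 1 member of 7 called in DMSO, where 1.47% of the 20426 genes were called. In reversine, where 2.84% were called, it was the 1 called of the 6 members other than CYP1A1, whose difference shares libraries with the choice of the group and is not counted. Both ALDH3A1 calls were lost without the batch block (adjusted p = 0.302 and 0.382), on leaving out replicate 1 (adjusted p = 0.0245 and 0.0467) and on leaving out replicate 3 (0.0187 and 0.0588). Leaving out replicate 2 gave adjusted p of 0.004 and 0.0333. In SK-GT-4 the ALDH3A1 differences were 0.58 (SE 0.39, adjusted p = 0.493) and 0.48 (SE 0.39, adjusted p = 0.532), and the second was 0.29 without replicate 2 of Cas9 reversine.

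CYP1B1 was also higher in OE33 cGAS KO, by a log2 difference of 1.44 (SE 0.40, adjusted p = 0.0476) in DMSO and 1.32 (SE 0.35, adjusted p = 0.0293) in reversine, neither of which passed 0.01. All cGAS KO reversine libraries were above all Cas9 reversine libraries. Without the cGAS KO DMSO library whose CGAS level went against its label, the differences were 1.98 (adjusted p = 4.48e-05) and 1.32 (adjusted p = 0.000189). In that fit 2 members, CYP1B1 and ALDH3A1, were called in DMSO against 4.77% of genes, and the same 2 in reversine against 6.69% of genes, again without counting CYP1A1. Without replicate 1 the differences were 0.94 (adjusted p = 0.413) and 1.27 (adjusted p = 0.121), and without replicate 3 they were 1.03 (adjusted p = 0.548) and 1.17 (adjusted p = 0.329). The corresponding differences in SK-GT-4 were -0.035 (SE 0.29) and -0.15 (SE 0.29), and the first was 0.12 without replicate 1 of cGAS KO DMSO.

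**Figure D3:**
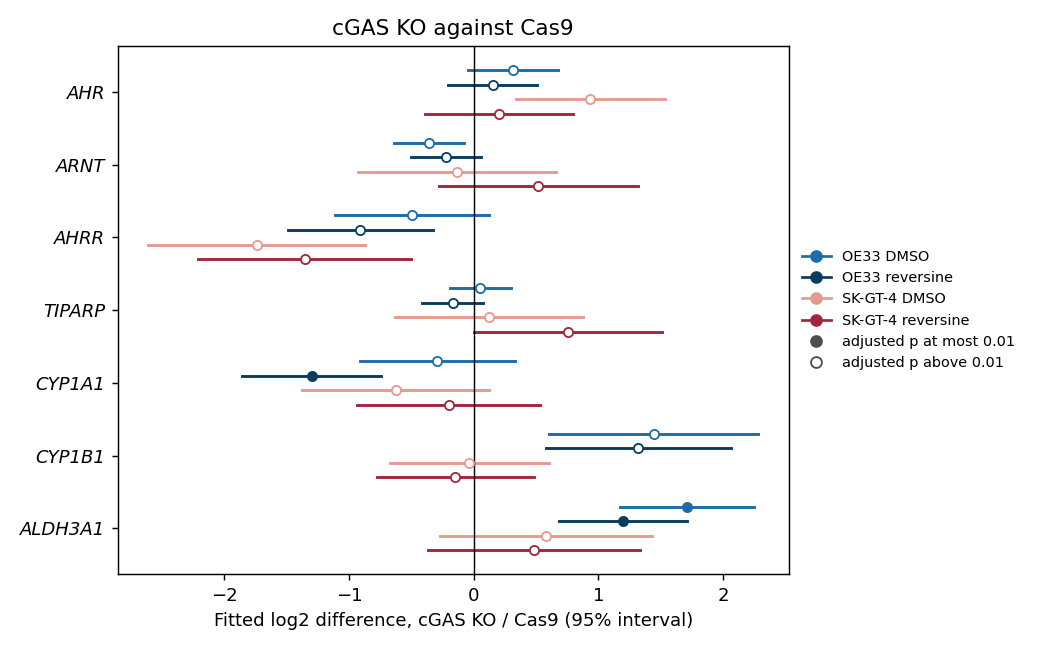
Fitted log2 difference between cGAS KO and Cas9 for the 7 members, by line and treatment, with bars for the 95% interval and filled points where the adjusted p was at most 0.01. In OE33, ALDH3A1 and CYP1B1 lie above 1 in both treatments, and in SK-GT-4 AHRR lies below -1 in both. The filled CYP1A1 point shares libraries with the choice of the group.

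AHRR was lower in SK-GT-4 cGAS KO than in Cas9 in all batches. It was 10.3, 7.35 and 5.76 CPM in Cas9 DMSO against 4.16, 2.53 and 0.860 CPM in cGAS KO DMSO. In reversine it was 10.5, 6.12 and 8.55 CPM against 3.45, 4.43 and 2.27 CPM, and the groups did not overlap in either treatment. The log2 difference was -1.74 (SE 0.40, adjusted p = 0.0282) in DMSO and -1.36 (SE 0.39, adjusted p = 0.0786) in reversine, so 0 of 7 members were called, against 1.76% and 1.41% of the 22782 genes. At an unadjusted p under 0.05 the edgeR fits had 3978 and 4203 genes, and DESeq2 called 1495 and 1450 genes, with AHRR among those in DMSO (adjusted p = 0.000887). Without both libraries that stood apart, AHRR was at -2.18 (adjusted p = 1.68e-09) and -1.70 (adjusted p = 7.79e-08). In that fit 2 members were called in DMSO, against 13.3% of genes, and 1 in reversine, against 11.6%. In OE33 the AHRR differences were -0.50 (SE 0.29, adjusted p = 0.415) and -0.91 (SE 0.28, adjusted p = 0.0526), with no overlap in reversine.

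AHR was higher in SK-GT-4 cGAS KO than in Cas9 in DMSO, without overlap, by a log2 difference of 0.93 (SE 0.27, adjusted p = 0.0837), and by 0.69 (adjusted p = 0.00337) without both libraries, where it was the second member called. In reversine the difference was 0.20 (SE 0.27), and 0.45 without replicate 2 of Cas9 reversine. AHR lies on chromosome 7 (GRCh38, chr7:16916359-17346152). The other 667 genes of that chromosome with a mean of at least 1 CPM had a median difference of 0.49 in DMSO and 0.43 in reversine. The 60 of them within 10 Mb of AHR had medians of 0.14 and -0.054, so the genes around AHR did not follow the chromosome median. The part of the chromosome level in the AHR difference was not tested. ARNT differed by -0.36 (SE 0.13, adjusted p = 0.145) and -0.22 (SE 0.13) in OE33, and by -0.14 (SE 0.36) and 0.52 (SE 0.36) in SK-GT-4. The ARNT differences in SK-GT-4 were 0.17 in DMSO without replicate 1 of cGAS KO DMSO and 0.12 in reversine without replicate 2 of Cas9 reversine. TIPARP differed by 0.76 (SE 0.34, adjusted p = 0.268) in SK-GT-4 reversine, which was 0.48 without that Cas9 library. In the other 3 comparisons TIPARP differed by at most 0.17 in size, although SK-GT-4 DMSO gave 0.52 without replicate 1 of cGAS KO DMSO. The CYP1A1 differences in SK-GT-4 were -0.63 (SE 0.34, adjusted p = 0.392) in DMSO and -0.20 (SE 0.33) in reversine. The log2 ratios behind the first were -1.52, -0.14 and -0.015 in replicates 1 to 3, and without replicate 1 of cGAS KO DMSO the fitted value was -0.40.

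OE33 and SK-GT-4 also differed in the levels of the group before any treatment. ALDH3A1 was 1.76 to 6.62 CPM in OE33 Cas9 DMSO and 70.8 to 101 CPM in SK-GT-4 Cas9 DMSO, a log2 difference of -4.38 (SE 0.68, adjusted p = 1.52e-05). CYP1B1 was 1.61 to 2.77 against 19.5 to 54.6 CPM, with -3.78 (SE 0.51, adjusted p = 2.16e-06), and AHRR 1.23 to 3.43 against 5.76 to 10.3 CPM, with -1.66 (SE 0.44, adjusted p = 0.00509). These 3 of 7 members were called, all lower in OE33, where 22% of 25181 genes were called. The AHRR call was lost without replicate 1 (adjusted p = 0.0462) or replicate 2 (adjusted p = 0.0861). CYP1A1, at -1.38 (SE 0.44, adjusted p = 0.0173), was lower in OE33 without overlap but did not pass 0.01. The median over all genes was -0.14.

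Over all 4 conditions, 12 libraries a line, 5 of 7 members were called with CYP1A1 counted, all lower in OE33. There 46.2% of genes were called and the median over all genes was -0.21. The log2 differences were -4.15 (SE 0.33, adjusted p = 8.54e-11) for ALDH3A1, -2.68 (SE 0.24, adjusted p = 5.8e-10) for CYP1B1 and -0.93 (SE 0.22, adjusted p = 0.000877) for AHRR. For AHR the difference was -0.52 (SE 0.16, adjusted p = 0.00838). For CYP1A1 it was -0.91 (SE 0.22), given without a p-value because it includes the OE33 reversine libraries that chose the group. Without replicate 2 of every group the calls of AHR and AHRR were lost, with adjusted p of 0.443 and 0.0287, and so was that of CYP1A1. That of AHRR was also lost without replicate 1 (adjusted p = 0.0582), and that of AHR without replicate 3 (adjusted p = 0.0136), without replicate 2 of SK-GT-4 Cas9 reversine (adjusted p = 0.021) and without the OE33 library whose CGAS level went against its label (adjusted p = 0.0168). ARNT, at 0.026 (SE 0.15), and TIPARP, at 0.44 (SE 0.16, adjusted p = 0.0241), did not pass. Since each line is 1 cell line, these tests compare 2 lines over repeated libraries. The fit over all 4 conditions also took the 12 libraries a line as independent, although libraries that share a batch varied together. ALDH3A1, for instance, was highest in replicate 2 in all 8 groups. The SE and adjusted p over all 4 conditions can therefore be too small, and the calls there are descriptions.

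**Figure D4:**
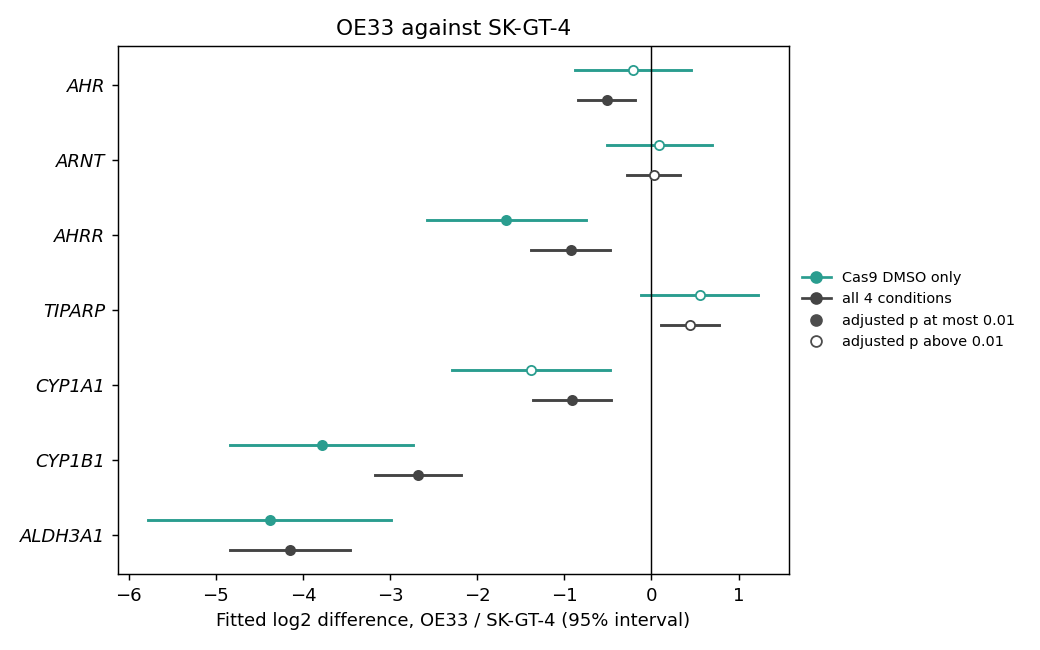
Fitted log2 difference of OE33 from SK-GT-4 for the 7 members, in Cas9 DMSO and over all 4 conditions, with bars for the 95% interval and filled points where the adjusted p was at most 0.01. ALDH3A1, CYP1B1, CYP1A1 and AHRR lie below 0 in both, and ARNT lies near 0. The filled CYP1A1 point over all 4 conditions includes libraries that chose the group. Bars over all 4 conditions take libraries that share a batch as independent, so they can be too short.

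Per kilobase of gene length in Cas9 DMSO (mean ± SD, n = 3), the order of levels in OE33 was TIPARP at 24.1 ± 3.0, ARNT at 4.12 ± 0.58, AHR at 2.15 ± 0.42, CYP1A1 at 1.67 ± 0.70, ALDH3A1 at 1.03 ± 0.62, CYP1B1 at 0.378 ± 0.099 and AHRR at 0.319 ± 0.15 CPM per kb. AHR and CYP1A1, CYP1A1 and ALDH3A1, and CYP1B1 and AHRR were within 1 SD of each other. In SK-GT-4 the order was ALDH3A1 at 21.6 ± 3.9, TIPARP at 16.4 ± 6.5, CYP1B1 at 5.22 ± 3.3, CYP1A1 at 4.38 ± 1.9, ARNT at 3.87 ± 0.38, AHR at 2.49 ± 0.38 and AHRR at 1.01 ± 0.30 CPM per kb. There ALDH3A1 and TIPARP, and CYP1B1, CYP1A1 and ARNT, lay within the SD of a neighbour. CYP1A1 under reversine was at 9.44 ± 4.8 in OE33 Cas9 and 9.73 ± 2.0 CPM per kb in SK-GT-4 Cas9, above ARNT and AHR of the same groups.

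Further genes of the pathway were read from 3 lists, for which counts and medians are given. No gene of any list was called in a reversine comparison. For the 7 genes of the receptor complex and related partners, the median log2 changes were -0.014 in OE33 Cas9, -0.070 in OE33 cGAS KO, -0.11 in SK-GT-4 Cas9 and -0.21 in SK-GT-4 cGAS KO. The medians over all genes were 0.0051, 0.0025, 0.037 and 0.039. The chaperones HSP90AA1 and HSP90AB1 had changes of -0.11 (SE 0.29) and -0.045 (SE 0.25) in SK-GT-4 Cas9.

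The 8 further targets had medians of 0.10 and 0.21 in OE33 Cas9 and cGAS KO, with 7 tested, and 0.24 in both genotypes of SK-GT-4. NQO1, a quinone reductase that AHR and NRF2 both induce, changed by 0.33 (SE 0.30) in SK-GT-4 Cas9 and -0.18 (SE 0.30) in cGAS KO. EREG, an EGF receptor ligand, changed by 0.017 (SE 0.25) and 0.25 (SE 0.25). The 6 enzymes of tryptophan breakdown, a source of AHR ligands, had medians of 0.80 and 0.24 in OE33 Cas9 and cGAS KO. These medians include genes with few counts. In OE33 Cas9 reversine, TDO2 had 0 to 8 counts per library, KMO 10 to 21 and IDO1 13 to 43. In SK-GT-4, where 4 were tested, the medians were 0.16 and -0.10. KYNU, kynureninase, changed by 0.34 (SE 0.19) in OE33 Cas9 and 0.070 (SE 0.24) in SK-GT-4 Cas9, and AFMID, the formamidase before it, by 0.016 (SE 0.17) and 0.24 (SE 0.24).

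Between genotypes, SERPINB2, a plasminogen activator inhibitor, was the 1 gene of the 3 lists that was called. In OE33 DMSO its log2 difference between cGAS KO and Cas9 was 1.35 (SE 0.23, adjusted p = 0.00279). It was not called in OE33 reversine, where the ratios within batches ran from 0.748-fold to 1.32-fold. In SK-GT-4 it had 0 counts in all Cas9 libraries and 4 to 97 counts per library in cGAS KO DMSO and 13 to 103 in cGAS KO reversine. Against a floor of 3 counts over the Cas9 group it was at least 51.3-fold higher in DMSO and at least 40.5-fold higher in reversine. Replicate 3 of cGAS KO held 97 of 123 counts in DMSO and 103 of 139 in reversine, and without it the bounds were 16.2-fold and 14.6-fold. The further targets had median differences of 0.12 and 0.25 in OE33 DMSO and reversine, and 0.33 and 1.02 in SK-GT-4. The tryptophan medians again include the low counts of TDO2 and KMO. For OE33 the complex list had medians of -0.084 in DMSO and -0.21 in reversine and the tryptophan list -0.14 and -0.61. For SK-GT-4 the corresponding medians were -0.46 and -0.34, and 0.078 and -0.21. The medians over all genes in these 4 comparisons were between -0.030 and 0.027.

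Between lines in Cas9 DMSO, where 22% of all genes were called, 1 of 7 complex genes was called, ARNT2, a neural relative of ARNT, at -2.90 (SE 0.58, adjusted p = 0.000313). Of the 8 further targets 3 were called higher and 1 lower in OE33. ABCG2, a drug efflux pump, was at 1.56 (SE 0.34, adjusted p = 0.000777), EREG at 1.54 (SE 0.39, adjusted p = 0.00311) and NQO1 at -1.74 (SE 0.37, adjusted p = 0.000677), while SERPINB2 had 0 counts in SK-GT-4. Of the 6 tryptophan enzymes 3 were called higher and 1 lower in OE33. IL4I1, an amino acid oxidase, was at 3.71 (SE 0.61, adjusted p = 3.72e-05), KYNU at 3.14 (SE 0.43, adjusted p = 3.04e-06) and AFMID at -1.06 (SE 0.25, adjusted p = 0.002). IDO1, the interferon-inducible enzyme that starts tryptophan breakdown, had 8 to 25 counts per library in OE33 and 0 to 1 in SK-GT-4.

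The genes whose pattern was most like that of CYP1A1 were sought over 24 libraries and 11718 genes, on log2 CPM centred within each line. The 5 highest Pearson correlations were with C11orf54 (0.766), TTC14 (0.763), GABARAPL1 (0.753), HDAC5 (0.746) and FBXO32 (0.712). GABARAPL1 is a member of the ATG8 family of autophagy proteins, HDAC5 is a class IIa histone deacetylase, and FBXO32 is the substrate adaptor of a ubiquitin ligase. Of the members, CYP1B1 (0.537, rank 77) and AHRR (0.519, rank 93) were closest, followed by TIPARP (0.278), AHR (0.179), ALDH3A1 (0.101) and ARNT (-0.169). In SK-GT-4 alone the correlation of CYP1A1 with CYP1B1 was 0.858, and in OE33 alone it was 0.419. The points share libraries, depths and the treatment itself, so the correlations are descriptions. GABARAPL1 changed with reversine by 0.99 (SE 0.25), 0.95 (SE 0.25), 0.76 (SE 0.30) and 0.84 (SE 0.30) in OE33 Cas9, OE33 cGAS KO, SK-GT-4 Cas9 and SK-GT-4 cGAS KO, and was not called in any of them.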

How the data were processed

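The authors deposited 1 table of gene counts for 24 libraries, which they made with HISAT2 2.0.5 and featureCounts 1.5.0 against GRCh38. The annotation release, strand setting and handling of multimapped reads are not given in the sources used here. Groups came from the labels. Genes with a total of at least 5 counts and counts in at least 4 libraries were tested (20426 in OE33, 22782 in SK-GT-4, 25181 in both), with TMM factors and edgeR 4.0.16 quasi-likelihood tests (R 4.3.3) on the counts as deposited. Adjusted p-values are Benjamini-Hochberg over all genes tested, and a gene was called at 0.01 or less. Each line was fitted on its 12 libraries with the batch as a block. Levels of the lines were compared without a block, and their reversine changes with batches nested in lines. The labels give the same batch numbers to all groups of a line, and deviations from group means correlated within a batch (between treatments of 1 genotype the median r was 0.36 for OE33 and 0.258 for SK-GT-4, and between genotypes it was 0.279 and 0.148).

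Log2 CPM used a prior count of 2. The members and gene lists, and the 3 libraries set apart, were chosen with earlier results of these data known. Text names the members, 2 genes of each list with the highest mean count, and list genes that were called, and TDO2 and KMO for their low counts. No replicate pair agreed within sampling noise (chi-square per gene of at least 16.6 in 24 pairs). The scripts were tested on simulated data. Alternatives were DESeq2 1.42.0, ComBat-seq of sva 3.50.0 followed by DESeq2, other size factors and filters, other blocks, and omitted libraries. Promoter sequences came from RefSeq and annotations from GENCODE, both of GRCh38. Floors cover counting error only, and intervals of fitted differences cover the spread between libraries that remains after any batch block.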

Additional observations from a re-analysis of the deposited data

Results flagged for a closer look

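Under reversine, ARNT was lower in cGAS KO in every batch of OE33 and higher in every batch of SK-GT-4. The mean log2 ratio of cGAS KO to Cas9 over 3 batches was -0.20 for OE33, against 0.62 for SK-GT-4. The difference between the lines was not tested. In SK-GT-4 the ratios ran from 0.010 to 1.49, and the highest came from replicate 2, where the Cas9 reversine library that stood apart had 10.2 CPM. In the fits, ARNT was not called in either line, and the SK-GT-4 difference of 0.52 was 0.12 without that library. Genes on chromosome 1 within 10 Mb of ARNT, with a mean of at least 1 CPM, differed in the same directions under reversine. Their median difference under reversine was -0.22 over 209 genes in OE33 and 0.21 over 211 genes in SK-GT-4. In DMSO, ARNT was at -0.36 and these genes at -0.23 in OE33. For SK-GT-4 in DMSO the directions were opposite, with ARNT at -0.14 and these genes at 0.20. The ARNT sign there changed without replicate 1 of cGAS KO DMSO. The part of the chromosome level in the ARNT differences was not tested.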

How the results depend on the processing

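Of 844 values recomputed for the 7 members under alternatives, 760 were counted as unchanged. A further 22 lost and 31 gained a call in the same direction, and 31 changed sign, of which none was a called value. Unchanged meant the same direction and the same side of the threshold. For the reversine changes in OE33 and their genotype difference, it meant a shift below the SD of the batch ratios. Lost or gained calls, and sign changes of values not called, were not counted for these OE33 values. The count of members called moved with the block, the filter, the tool and the libraries, and so did the share of all genes called. For reversine in OE33 Cas9, the comparison that chose the group and so fixed its count, it was 1, and became 0 without the replicate block and with edgeR's own filter, 2 with a replicate block per genotype (0.455% of genes) and with no filter (0.343%), and 4 with ComBat-seq and DESeq2 (4.09%). In OE33 cGAS KO it was 0, and 2 with a replicate block per genotype (0.494%), with no filter (0.543%) and with ComBat-seq and DESeq2 (3.48%). In SK-GT-4 it was 0 throughout, against 2 in Cas9 (0.36%), 1 in cGAS KO (0.0878%) and 3 over both genotypes (0.663%) with ComBat-seq and DESeq2, and 2 over both with DESeq2 (0.0219%). Between genotypes in OE33 DMSO it was 1, and 0 without the replicate block (0.0734%) and 2 with no filter (3.73%). In OE33 reversine it was 2 with CYP1A1 counted, and 0 without the block (0.0832%), 0 with edgeR's own filter (2.79%) and 4 with no filter (5.5%). In SK-GT-4 DMSO it was 0, and 1 with DESeq2 (6.56%) and with no filter (2.12%). In each of these the cause was not tested.

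Leaving out libraries gave 0 to 1 members called for reversine in OE33 Cas9, against 0% to 0.00992% of all genes. CYP1A1 is counted here and below. Between genotypes in OE33 it gave 0 to 2 in DMSO (0.059% to 4.77%) and 0 to 3 in reversine (0.0966% to 6.69%). In SK-GT-4 it gave 0 to 2 in DMSO (0% to 13.3%) and 0 to 1 in reversine (0% to 11.6%). Between lines over all 4 conditions it gave 2 to 5 (36.7% to 47%). For reversine in SK-GT-4 the ranges were 0 to 3 in Cas9 (0% to 0.103%) and 0 to 1 in cGAS KO (0% to 0.018%). Over both genotypes the range was 0 to 3 (0% to 0.117%). The highest SK-GT-4 counts came from the fit without both libraries that stood apart, an alternative chosen after seeing the data.

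Signs changed in values that were not called. AHR for reversine in SK-GT-4 cGAS KO was 0.0081 with ComBat-seq and DESeq2, ARNT between lines over all 4 conditions was -0.031 with DESeq2 and with its size factors, CYP1B1 between genotypes in SK-GT-4 DMSO was 0.0064 with edgeR's own filter, and TIPARP there was -0.0023 without the replicate block. Leaving out libraries, reversine changes ranged from -0.38 to 0.21 for AHR and -0.092 to 0.51 for ARNT in SK-GT-4 cGAS KO, and from -0.13 to 0.46 for AHRR and -0.058 to 0.31 for TIPARP in SK-GT-4 Cas9. Genotype differences in SK-GT-4 DMSO ranged from -0.48 to 0.17 for ARNT, -0.30 to 0.41 for CYP1B1 and -0.14 to 0.55 for TIPARP. In SK-GT-4 reversine they ranged from -0.019 to 0.45 for AHR, -0.47 to 0.098 for CYP1A1 and -0.35 to 0.023 for CYP1B1. The difference between lines ranged from -0.071 to 0.18 for ARNT, and that of the reversine change from -0.60 to 0.14 for ALDH3A1.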
